A study of Mus musculus with 6 samples.

Results

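The nuclear-encoded subunits of the respiratory chain were described complex by complex in hematopoietic stem cells of wild-type and Yy1 knockout mice. Members were the protein-coding genes of the deposited table whose symbols start with Ndufa, Ndufb, Ndufc, Ndufs or Ndufv and a digit (complex I), are Sdha to Sdhd (complex II), start with Uqcr or are Cyc1 (complex III), start with Cox4 to Cox8 (complex IV), or start with Atp5 (complex V). The rule took 78 of the 15553 listed genes, 36 for complex I, 4 for complex II, 9 for complex III, 12 for complex IV and 17 for complex V. The rule uses symbol and gene type and no measured value, though it was chosen with earlier results of these data known. Symbols do not always follow function: Ndufa4 is now counted as a complex IV subunit, and Atp5s, Atp5sl and Cox7a2l are better known as assembly or supercomplex factors than as core parts of the enzymes they are named for.

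The respiratory chain sits in the inner mitochondrial membrane. Complexes I and II pass electrons from NADH and succinate to ubiquinone, complex III passes them to cytochrome c and complex IV to oxygen, and complex V, the ATP synthase, uses the proton gradient that complexes I, III and IV build. Most subunits come from nuclear genes and a few core subunits of complexes I, III, IV and V from mitochondrial DNA, and hematopoietic stem cells at rest are known for leaning on glycolysis more than on this chain.

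The study compared RNA of sorted bone marrow stem cells between wild-type and Yy1 knockout C57BL/6 mice aged 6 to 8 weeks. Wild type stands for mice labelled Mx1-Cre (n = 3 libraries) and knockout for mice labelled Yy1f/f;Mx1-Cre (n = 3), so all 6 libraries carry Mx1-Cre, a recombinase under a promoter that interferon switches on in blood and many other cells. Yy1 encodes a zinc-finger protein that binds DNA and can activate or repress genes. The cells are labelled Lin-Sca1+c-Kit+CD150+, while the protocol names a further gate without CD150, and CD48-negative cells for either, so the gate behind a library is not settled here. The labels name neither the deleted part of Yy1 nor the treatment that induced Cre, and they do not say whether each library came from its own mouse, so p-values measure the spread between libraries, which may be technical.

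All values are RPKM, reads of a gene scaled by its length and by the size of the library. Reads in listed genes ran from 15102983 to 21757040 per library. Yy1 itself was at 31.6, 42.3 and 52.1 RPKM in wild type (replicates 1 to 3, the order used throughout) against 36.2, 16.6 and 28.5 RPKM in knockout. The library labelled Yy1 knockout replicate 1 therefore lay within the wild-type range at the targeted gene. Fold changes without it are given for the members whose genotypes did not overlap. They are also given for other members with a printed fold change that it moved by over 1.5 times or across 0. Members described by their values alone have none. The log2 fold change of Yy1 was -0.66 (SE 0.32, adjusted p = 0.680, limma). Wild-type replicates 3 and 1 stood apart, with median Spearman correlations to the other libraries of 0.770 and 0.792 over all tested genes, against 0.826 to 0.874 for the other 4. All 12 stem and progenitor markers listed, Kit, Ly6a and Mecom among them, were at 1 RPKM or more in every library, and their summed level was 696 to 772 RPKM in wild type against 511 to 533 RPKM in knockout. Of 10 proliferation markers, 9 (90%) had values that did not overlap between genotypes, all higher in knockout, against 7.63% of all tested genes in that direction. The summed levels of the 10 were 118 to 179 RPKM in wild type against 383 to 408 RPKM in knockout. Of 8 megakaryocyte markers, 7 were tested and all 7 had fold changes above 0, against 51.9% of all tested genes. Summed levels of the 8 were 31.9 to 50.6 RPKM in wild type against 64.4 to 122 RPKM in knockout. The last was in the library labelled knockout replicate 1, with 65.3 RPKM the next highest. Gp1bb was at 0 in wild-type replicates 1 and 3 and knockout replicate 3. Granulocyte markers were highest in wild-type replicate 2 and knockout replicate 2 (summed 171 and 299 RPKM, against 17.7 to 70.7 RPKM in the other 4 libraries), and Elane was at 0 in those 4. Of 7 listed erythroid markers 5 were tested, and their summed level was 207 to 260.01 RPKM in wild type against 199.9 to 267 RPKM in knockout. Among them Hbb-bs was higher in every knockout library (3.50, 14.4 and 15.05 against 28.8, 15.6 and 78.8 RPKM), and Car2 was lower in every one (188, 165 and 199.6 against 149, 142 and 124 RPKM). Of 3 listed monocyte markers Cd68 was at 0.0616, 2.72 and 0 RPKM in wild type against 2.06, 5.82 and 9.49 RPKM in knockout, Lyz2 ranged from 80.03 to 121 against 66.9 to 95.2 RPKM, and Ccr2 was at 0 in 4 libraries. Of 6 B-cell markers only Cd79b was among the listed genes, at 13.3 to 28.6 RPKM in wild type against 9.15 to 21.4 RPKM in knockout. The part of these other cells and of cycling cells in the results on the respiratory chain was not tested, and in bulk libraries fewer cells of a type and less RNA per cell cannot be told apart.

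Since Yy1 was the deleted gene, the members' promoters were searched for the core of its binding motif, AANATGGCG or its reverse complement CGCCATNTT. The RefSeq promoter table (GRCm38.p6, from 250 bases before to 50 bases after a gene's start) held 66 of the 78 members, and 11 of these 66 (16.7%) carried the motif: Atp5b, Atp5j, Atp5j2, Atp5sl, Ndufa7, Ndufa9, Ndufb11, Ndufc1, Ndufs4, Ndufs6 and Ndufs7. The share was 2.76% of all 27025 genes with a promoter of that length and 6.76% of the 8565 tested protein-coding genes with a promoter. The windows below are those of motif-bearing members whose values are described further on, written 5' to 3' on the gene's strand with the motif in capitals and up to 10 bases on either side.
Ndufs6, chr13:73328433-73328459, minus strand: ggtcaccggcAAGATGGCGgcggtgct
Ndufs7, chr10:80249463-80249491, plus strand: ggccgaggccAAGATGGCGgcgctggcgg
Ndufa9, chr6:126849097-126849125, minus strand: attgtgggagAAGATGGCGgccgccgtcc
Atp5b, chr10:128083313-128083341, plus strand: acccggattcCGCCATGTTgagtcttgtg
Atp5j2, chr5:145191500-145191528, minus strand: ccaggacttcAAGATGGCGtcactcggtg
Atp5sl, chr7:25619430-25619458, plus strand: gttacctggcAAGATGGCGgcgcccagag
In 10 of the 11 members the motif read AANATGGCG on the gene's strand, and only Atp5b among these 6 windows held the reverse complement. In 8 of these 10 the ATG inside the motif was an annotated start codon in GENCODE release M21, as in Ndufs6, Ndufs7, Ndufa9, Atp5j2 and Atp5sl. The reversed motif of Atp5b also holds an ATG on the gene's strand, and that ATG was not checked against start codons. Counting the first transcribed base as 1, the motif began at base 25 in Ndufs7, 34 in Ndufs6, 30 in Ndufa9, 24 in Atp5j2, 27 in Atp5sl (its first promoter entry) and 17 in Atp5b.

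A match of these letters is a description of sequence and not a binding site. The motif of NRF1 (GCGCA, any base and GCGC), a factor known for driving respiratory genes, was found on either strand in 17 of the 66 members (25.8%), against 5.19% of all genes with a promoter and 12.7% of tested protein-coding genes. The motif CCGGAAGT of GABPA was found in 5 members (7.58%, against 4.31% of all genes with a promoter) and TCAAGGTCA of ESRRA in 2 members (3.03%, against 0.466%). For GABPA and ESRRA the share among tested genes was not taken. None of the 4 motifs as spelled can be a stretch of another, though sites may overlap in a promoter. Ndufs6 held both the YY1 and the NRF1 letters. The 11 members with the YY1 motif had a median log2 fold change of 0.07, with 6 above 0, and the 55 with a promoter and no such motif had a median of 0.22, with 35 above 0. Over all tested protein-coding genes the medians were 0.03 with the motif (n = 579) and 0.02 without it.

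Between genotypes no member passed the test. Each gene was compared with limma on log2(RPKM + 0.5), a scale that understates the change of low genes, over the 13179 genes that reached 1 RPKM in 3 or more libraries, with Benjamini-Hochberg adjustment over all of them and a threshold of 0.05. All 78 members were tested, and 7 of them had under 1 RPKM in some library, always a wild-type library. These 7, Ndufb6, Ndufs7 and Atp5l among them, thus passed the filter only with the help of their knockout values. Each of the 7 had a log2 fold change above 0. Limma called 0 of 13179 genes (percent called 0) and 0 members, the smallest adjusted p of a member being 0.429. Limma-voom on the reads recovered from the RPKM called 8 of 13114 genes (0.0610%) and 0 members, and the authors' deposited table held 24 of 15553 genes with an adjusted p under 0.05 (0.154%) and 0 members.

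At an unadjusted p under 0.05 limma gave 7 members, 8.97% of the 78, against 7.79% of all tested genes. The 5 higher in knockout were Ndufs6, Ndufa10, Ndufb6, Cox6a1 and Atp5l (background in that direction 4.73%), and the 2 lower were Ndufa2 and Ndufa4 (3.06%). Limma-voom gave 3 higher and 1 lower (4.40% and 3.43% of all genes it tested, 7.83% in all). In the authors' deposited table the unadjusted p was under 0.05 for 6 members, 5 higher and 1 lower in knockout, against 8.02% of all listed genes. Without wild-type replicate 3 there were 9 members higher and 3 lower at this p (11.5% and 3.85% of the 78, against 5.26% and 3.31% of all tested genes in the same fit). Without knockout replicate 3 there were 3 higher and 4 lower (3.85% and 5.13%, against 2.86% and 2.59%), and without the library labelled Yy1 knockout replicate 1 there were 5 and 2 (6.41% and 2.56%, against 3.11% and 2.30%).

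Values of the 3 wild-type and 3 knockout libraries did not overlap for 12 members, 15.4% of the 78, against 14.5% of all tested genes. In 6 of them every knockout library was higher (7.63% of all tested genes) and in the other 6 every knockout library was lower (6.87%). These shares are close to the background. With fewer libraries to keep apart the shares grow in any list. Leaving out the library labelled knockout replicate 1 gave 10 members higher and 7 lower (12.8% and 8.97%, against 11.6% and 10.5% of all tested genes), and leaving out wild-type replicate 1 gave 11 and 10 (14.1% and 12.8%, against 13.2% and 11.9%). Leaving out wild-type replicate 3 gave 20 and 7 (25.6% and 8.97%, against 13.2% and 13.6%).

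The log2 fold change was above 0 for 47 of 78 members (60.3%), against 51.9% of all tested genes, with 48.1% of those below 0, and the median was 0.15 over members and 0.02 over all tested genes. The members' fold changes ran from -1.15 for Ndufa4 to 3.01 for Ndufb6. Without the library labelled knockout replicate 1 the members' median was 0.13, and over the 6 ways of leaving out 1 library it ran from 0.07 to 0.18. By complex, the median was 0.19 for complex I (23 of 36 above 0), -0.01 for complex II (1 of 4), -0.01 for complex III (4 of 9), 0.27 for complex IV (10 of 12) and 0.19 for complex V (9 of 17). Leaving out a single library moved every one of these medians by more than 1.5 times. Complex I had 0.026 and complex IV 0.088 without wild-type replicate 1, complex V had 0.059 without the library labelled knockout replicate 1 and 0.33 without knockout replicate 2, complex II had 0.17 without wild-type replicate 3, and complex III ran from -0.18 to 0.14 over the 6 ways. With only genes that reached 5 RPKM in 3 or more libraries, the median of complex V was -0.035. These are descriptions of lists, with no test, and no complex was compared with another.

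**Figure D1:**
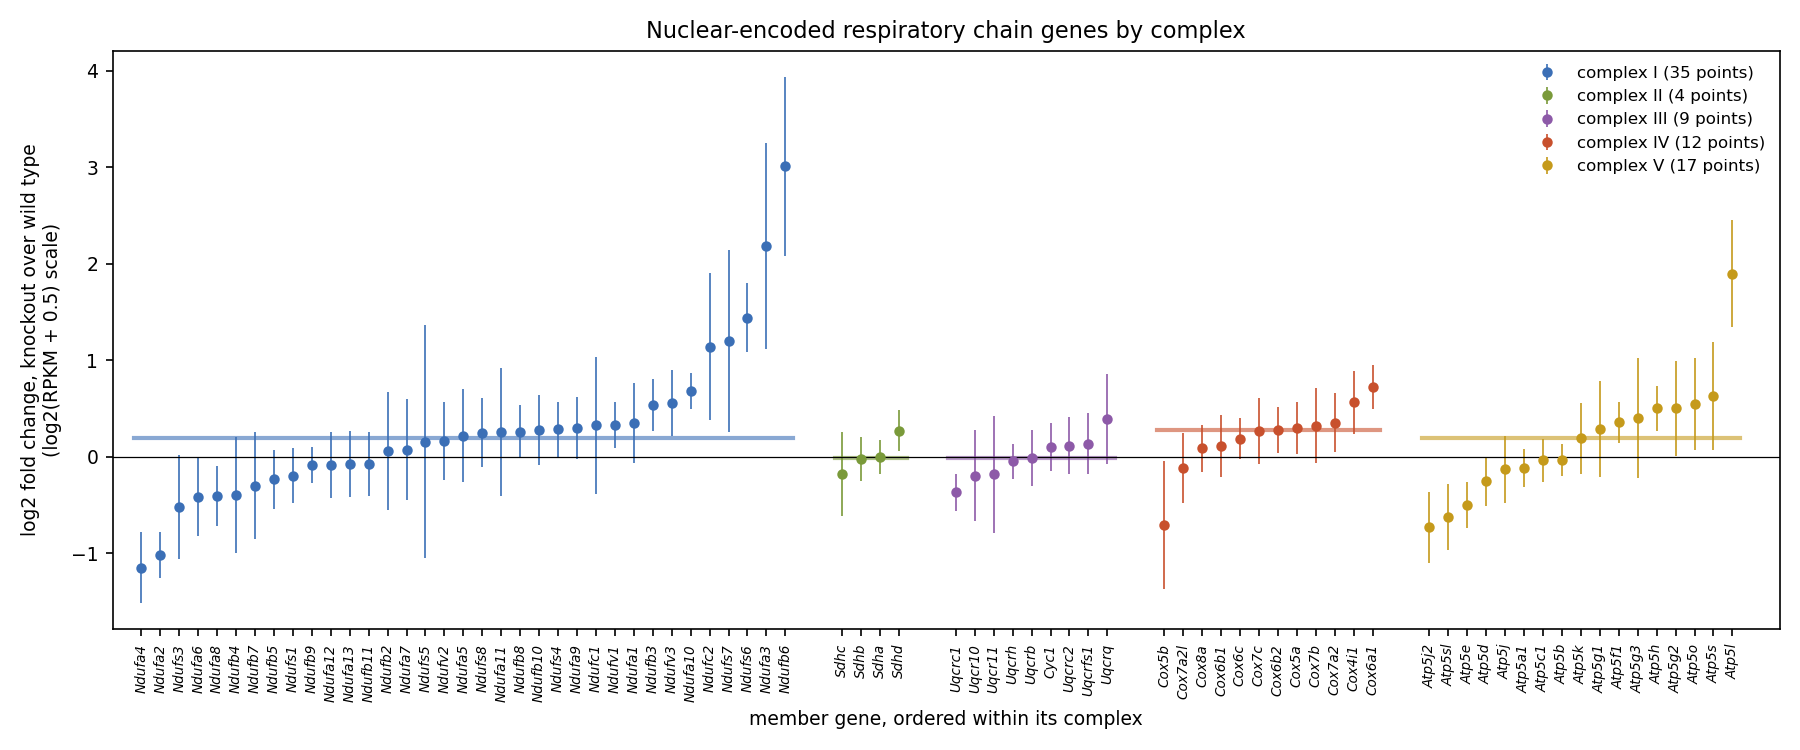
Log2 fold change, knockout relative to wild type (y axis, log2(RPKM + 0.5) scale) for 77 of the 78 members (x axis), grouped and coloured by complex. Points are limma estimates, vertical bars are standard errors and thick horizontal lines are the medians of the complexes over all their members. Most points lie between -0.5 and 0.5, Ndufb6 reaches 3.01 and Ndufa4 -1.15.

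The mean level of each complex in each library, taken as the mean log2(RPKM + 0.5) of its genes minus their wild-type means, showed how far libraries of a genotype lay from each other. For complex I the wild-type libraries were at -0.21, 0.23 and -0.02 and the knockout libraries at 0.24, 0.20 and 0.33. Wild-type replicate 2 lay between the knockout libraries, so the genotypes overlapped. For complex IV the wild-type values were -0.29, -0.03 and 0.32 and the knockout values 0.07, 0.13 and 0.38, again overlapping because wild-type replicate 3 was high. For complex II (-0.30, -0.01 and 0.31 against 0.06, -0.02 and 0.00) and complex III (-0.04, -0.23 and 0.27 against 0.14, -0.31 and 0.15) the knockout libraries lay inside or near the wild-type range. For complex V they were 0.09, 0.00 and -0.09 against 0.24, 0.01 and 0.26. The proliferation markers, on the same scale, ran from -0.21 to 0.23 in wild type and from 1.28 to 1.45 in knockout.

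**Figure D2:**
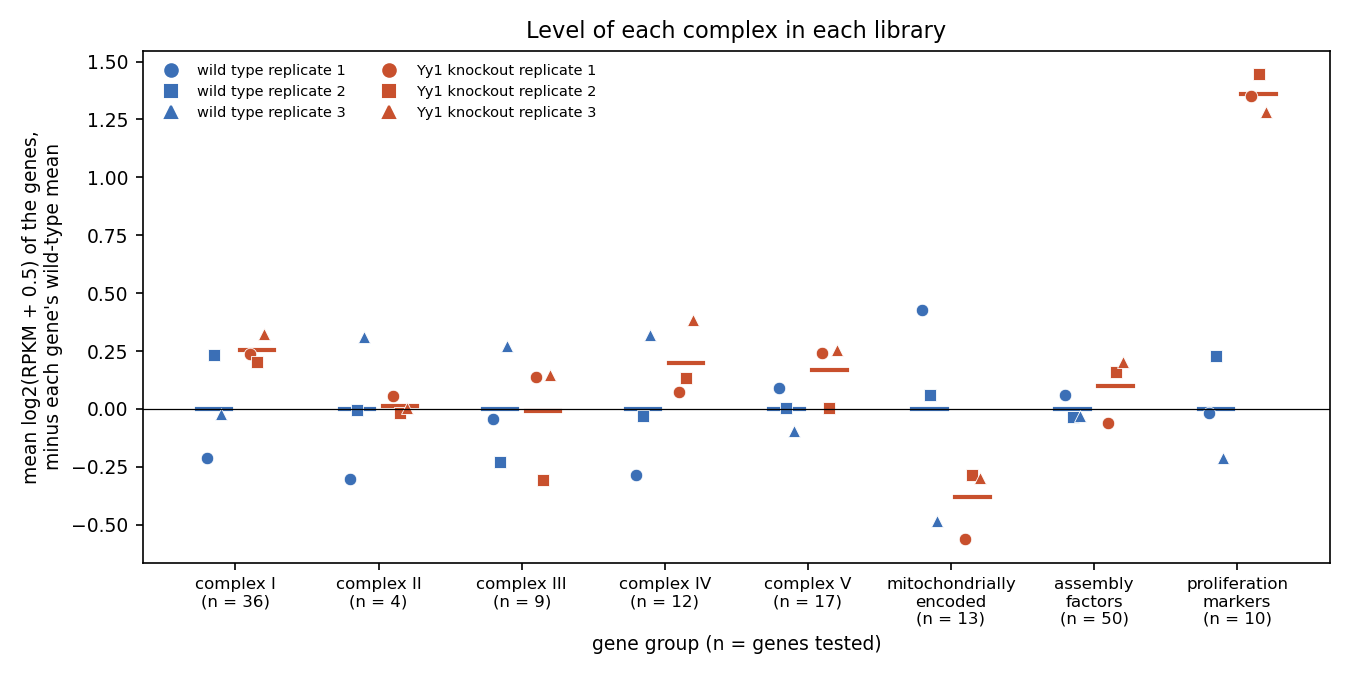
Mean log2(RPKM + 0.5) of the genes of a group in each library, minus each gene's wild-type mean (y axis), for the 5 complexes and 3 comparison groups (x axis, n = genes). Symbols are the replicates, blue for wild type and red for knockout, and horizontal lines are genotype means. Wild type and knockout overlap in every complex, while the proliferation markers lie from 1.28 to 1.45 in knockout and at 0.23 or below in wild type.

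Summed over all 78 members, RPKM was 2342, 2544 and 3004 in wild type against 2659.9, 2569 and 3159 in knockout, or 2630.2 ± 339 and 2796 ± 318 (SD, n = 3). The highest wild-type library exceeded 2 of the 3 knockout libraries. The RPKM fitted the length of all annotated exons of a gene, which can exceed the length of its transcript. Levels of different genes are therefore only roughly comparable. A mean of at least 100 RPKM was found for 6 members and a mean under 10 RPKM for 16. The means ran from 2.18 RPKM (Ndufb2) to 195 RPKM (Atp5a1). Ndufb2 has 5628 exonic bases, against a median of 1737 for members.

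Complex I begins with the arm that oxidises NADH. Ndufv1, which holds the flavin and the NADH site, was at 21.5, 18.2 and 19.9 RPKM in wild type against 24.0, 32.3 and 20.1 RPKM in knockout, with overlapping ranges and a log2 fold change of 0.33 (SE 0.23). Ndufv2, an iron-sulfur subunit beside it, ranged from 17.2 to 45.8 RPKM in wild type against 25.2 to 46.3 RPKM in knockout (0.16, SE 0.40, and -0.02 without the library labelled knockout replicate 1). Ndufs1, the largest iron-sulfur subunit of this arm, was at 9.69, 13.7 and 13.8 RPKM, scaled by 8086 exonic bases, against 12.3, 11.6 and 8.39 RPKM (-0.20, SE 0.28, and -0.30 without that library). The fold changes of these 3 core subunits did not share a sign, and each was smaller than 2 SEs.

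Further along the arm, Ndufs8, which carries iron-sulfur clusters, ranged from 16.0 to 38.3 RPKM and from 21.3 to 31.6 RPKM (0.25, SE 0.35, and 0.40 without the library labelled knockout replicate 1). Ndufs7, which holds the last cluster before ubiquinone, was at 0.991 RPKM in wild-type replicate 1 and at 17.3 and 20.7 RPKM in replicates 2 and 3, while knockout had 19.9, 13.6 and 23.1 RPKM. Its log2 fold change of 1.20 (SE 0.94) rested on wild-type replicate 1, without which it was -0.035. Ndufa9, an accessory subunit at the junction of the arms, was at 15.8, 34.9 and 32.9 RPKM against 38.1, 29.2 and 30.9 RPKM (0.30, SE 0.32, and 0.19 without the library labelled knockout replicate 1), and it too was lowest in wild-type replicate 1. Ndufb10, of the membrane arm, ranged from 8.62 to 21.6 RPKM in wild type against 13.4 to 19.8 RPKM in knockout (0.28, SE 0.37).

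Next are the members named for complex I that came closest to the threshold. Ndufs6 (chr13:73319838-73328542, GRCm38), a zinc-binding subunit of the peripheral arm whose YY1 window is shown above, was at 10.6, 24.0 and 19.7 RPKM in wild type against 53.1, 32.8 and 60.8 RPKM in knockout. Every knockout library lay above every wild-type library, the nearest pair being 24.0 and 32.8 RPKM. The log2 fold change was 1.44 (SE 0.36, adjusted p = 0.429, limma), and 1.36 without the library labelled knockout replicate 1. The mouse genome holds Ndufs6b, a near-identical copy, and reads of the pair may have been split or shared in the authors' counting.

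Ndufa10 (chr1:92439010-92473860), a membrane-arm subunit related to nucleoside kinases, was the steadiest of these. It was at 19.3, 18.7 and 18.5 RPKM in wild type against 29.1, 28.2 and 34.6 RPKM in knockout, or 18.9 ± 0.422 and 30.6 ± 3.49 (SD, n = 3). The genotypes were well apart relative to their spread, with a log2 fold change of 0.68 (SE 0.19, adjusted p = 0.481, limma), a range of 0.59 to 0.74 over leaving out each library, and 0.71 without the library labelled knockout replicate 1. The share of complex I RPKM taken by Ndufa10 was 2.24% ± 0.331 in wild type and 3.33% ± 0.138 in knockout. It had no near-identical copy and shared no exon with another gene.

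Ndufb6 (chr4:40270591-40279421), a membrane-arm subunit, had the largest fold change of all members, at 3.41, 6.97 and 0.103 RPKM in wild type against 11.6, 17.3 and 42.0 RPKM in knockout. Few reads stood behind the wild-type values, 29, 74 and 1, against 133, 200 and 541 in knockout. Only 2 wild-type libraries reached 1 RPKM, so Ndufb6 entered the test through its knockout values. Its log2 fold change was 3.01 (SE 0.93, adjusted p = 0.546, limma). It was 1.96 without wild-type replicate 3 and was 3.40 without the library labelled knockout replicate 1. Exons of the antisense gene Smim27 overlap 39.0% of its exonic length, and reads of the pair cannot be told apart without a strand setting.

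Ndufa2, a subunit of the NADH-oxidising module, was at 43.7, 45.2 and 28.3 RPKM in wild type against 20.5, 17.4 and 18.1 RPKM in knockout. The genotypes did not overlap and the knockout libraries lay close together (18.7 ± 1.63 against 39.1 ± 9.40 RPKM, SD, n = 3). It had the smallest unadjusted p of the members by limma, 0.00302, with a log2 fold change of -1.02 (SE 0.24, adjusted p = 0.429), while limma-voom gave an unadjusted p of 0.0817. Without the library labelled knockout replicate 1 the fold change was -1.09. Ndufa4 (chr6:11900292-11907497), the complex IV subunit with a complex I name, was at 19.0, 26.8 and 47.0 RPKM in wild type against 15.9, 9.31 and 13.9 RPKM in knockout, all below wild type (-1.15, SE 0.37, adjusted p = 0.559, limma). The highest wild-type value came from replicate 3, without which the fold change was -0.80, and it was -1.305 without the library labelled knockout replicate 1.

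**Figure D3:**
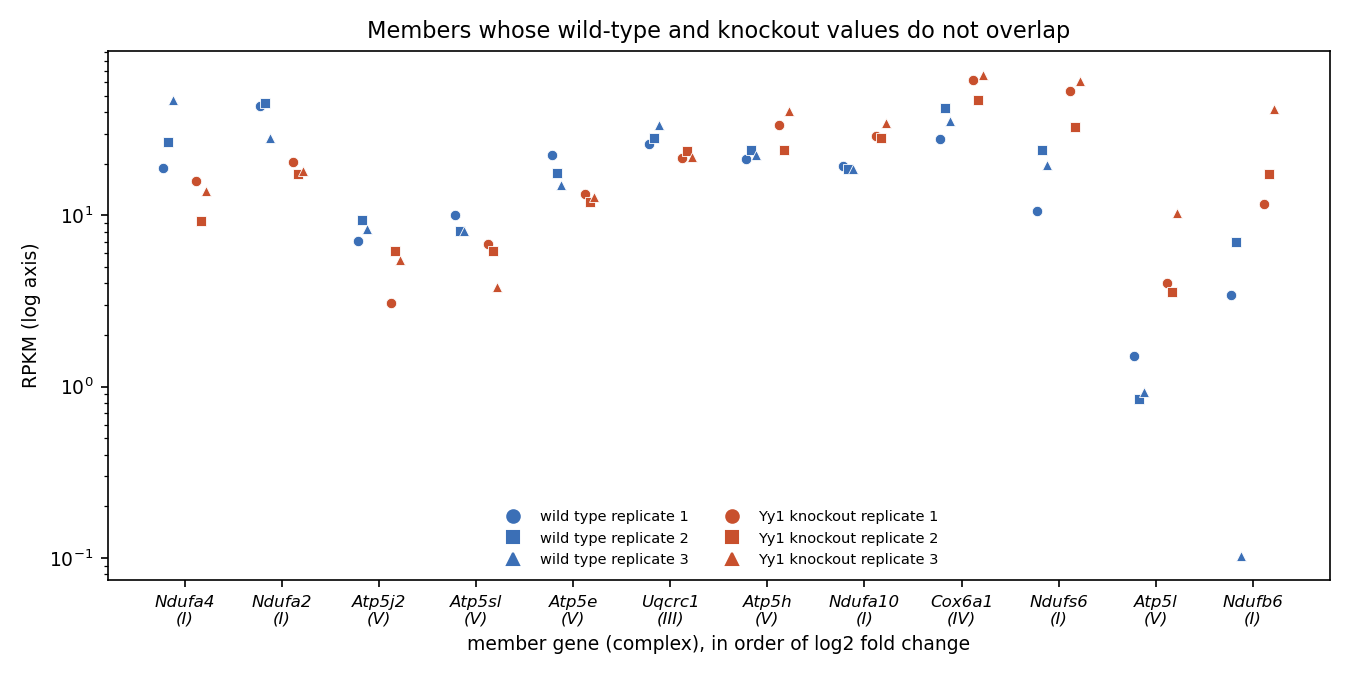
RPKM on a log axis (y axis) of the 12 members whose wild-type and knockout values do not overlap (x axis, complex in brackets). Each symbol is 1 library, blue for wild type and red for knockout, with the shape marking the replicate. Ndufa10 shows tight groups at 18.5 to 19.3 and 28.2 to 34.6 RPKM, while Ndufb6 spans 0.103 to 6.97 RPKM within wild type.

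Complex II, succinate dehydrogenase, is wholly nuclear-encoded and belongs to the citric acid cycle as well. Sdha, the flavin subunit, was at 54.2, 58.7 and 69.1 RPKM in wild type against 68.7, 56.8 and 55.8 RPKM in knockout, or 60.7 ± 7.67 and 60.5 ± 7.17 (SD, n = 3). Sdhb, the iron-sulfur subunit, was at 29.5, 28.5 and 26.3 RPKM against 21.7, 27.7 and 35.0 RPKM, with equal means of 28.1 RPKM. Their log2 fold changes were -0.00 and -0.02, with SEs of 0.18 and 0.22, and -0.10 and 0.15 without the library labelled knockout replicate 1. Of the membrane anchors, Sdhd was at 49.9, 60.4 and 73.3 RPKM against 87.2, 61.1 and 72.9 RPKM (0.27, SE 0.21, and 0.14 without the library labelled knockout replicate 1, its top value), and Sdhc at 6.98, 13.0 and 24.1 RPKM against 11.99, 13.2 and 9.42 RPKM (-0.18, SE 0.44). In RPKM, Sdhc was thus well below its partner anchor in every library, and the order Sdhc, Sdhb and then Sdha or Sdhd held in all 6.

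Complex III pairs a catalytic core with small accessory subunits. Cyc1, cytochrome c1, was at 23.5, 21.1 and 20.96 RPKM in wild type against 31.0, 17.9 and 23.1 RPKM in knockout (0.10, SE 0.25, and -0.10 without the library labelled knockout replicate 1). Uqcrfs1, the Rieske iron-sulfur protein, ranged from 21.9 to 44.7 RPKM and from 25.1 to 42.6 RPKM (0.14, SE 0.32, and -0.05 without that library). Of the core proteins that face the matrix, Uqcrc1 (chr9:108936633-108949623) was at 26.1, 28.1 and 33.8 RPKM in wild type against 21.6, 23.7 and 22.01 RPKM in knockout. It was the only complex III member without overlap, with a log2 fold change of -0.37 (SE 0.19, adjusted p = 0.705, limma) and -0.34 without the library labelled knockout replicate 1. Its partner Uqcrc2 was at 41.2, 37.5 and 77.6 RPKM against 51.9, 47.3 and 62.4 RPKM (0.12, SE 0.29). Uqcrq, a small accessory subunit, had the highest fold change of the complex, 0.39 (SE 0.47), from 6.30 to 15.9 RPKM in wild type against 9.02 to 22.8 RPKM in knockout, with the top value in the library labelled knockout replicate 1 and a fold change of -0.025 without it.

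In complex IV, cytochrome c oxidase, nuclear subunits surround a mitochondrially encoded core. Cox6a1 (chr5:115345642-115348981), the isoform of Cox6a found outside heart and muscle, was at 27.8, 42.3 and 35.5 RPKM in wild type against 61.3, 47.0 and 66.1 RPKM in knockout. Every knockout library was higher, the log2 fold change was 0.72 (SE 0.23, adjusted p = 0.557, limma), and it was 0.68 without the library labelled knockout replicate 1. Cox4i1, the widely expressed Cox4 isoform, was at 60.1, 83.7 and 127 RPKM against 143, 89.6 and 163 RPKM (0.57, SE 0.33), overlapping because of wild-type replicate 3 and knockout replicate 2.

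Cox5a was at 53.5, 62.2 and 107 RPKM in wild type against 84.8, 98.4 and 79.3 RPKM in knockout (0.30, SE 0.27). Cox5b, a zinc-binding subunit, had the lowest fold change of the complex, -0.71 (SE 0.66), and it came from wild-type replicate 3 alone: 5.83, 4.16 and 28.7 RPKM in wild type against 4.89, 5.56 and 5.57 RPKM in knockout. Without that library the fold change was 0.10. The small subunits Cox6c, Cox7c and Cox8a had fold changes of 0.19, 0.27 and 0.09 with SEs of 0.21, 0.34 and 0.24, and Cox7a2 had 0.35 (SE 0.30). Cox7a2l, which ties complexes III and IV into supercomplexes, was at 92.5, 117 and 184 RPKM against 78.0, 111 and 181 RPKM (-0.12, SE 0.36, and 0.17 without the library labelled knockout replicate 1), with replicate 3 highest in either genotype. Its mean led the members named for complex IV in wild type (131 RPKM, against 90.3 RPKM for Cox4i1), while Cox4i1 led in knockout (132 against 123 RPKM).

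The muscle isoforms Cox6a2 and Cox7a1 and the hypoxia-linked Cox4i2 were not among the members, so only Cox6b gave a pair of isoforms in complex IV. Cox6b1 was at 104, 63.5 and 40.2 RPKM in wild type against 70.0, 74.1 and 64.1 RPKM in knockout (0.11, SE 0.32). Cox6b2, known as the testis form, was at 15.2, 14.3 and 21.1 RPKM against 18.5, 19.6 and 22.9 RPKM (0.28, SE 0.24). The share of Cox6b2 in their sum was 21.9% ± 11.2 and 22.7% ± 3.15 (SD, n = 3).

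Complex V was carried by its soluble head. Atp5b, the catalytic beta subunit whose promoter holds the reversed motif, was at 146, 133 and 158 RPKM in wild type against 142, 126 and 160.4 RPKM in knockout (-0.03, SE 0.17). Atp5a1, the alpha subunit, was at 176, 177 and 261 RPKM against 182, 182 and 191 RPKM (-0.12, SE 0.20). Atp5c1, the gamma subunit of the central stalk, was at 103, 113 and 168 RPKM against 106, 121 and 141 RPKM (-0.04, SE 0.23, and 0.06 without the library labelled knockout replicate 1). These 3 genes made up 68.9% ± 6.48 of the RPKM of complex V in wild type and 65.9% ± 3.44 in knockout. The 3 were within 0.12 of 0 on the log2 scale, while the other 14 members of the complex ran from -0.73 to 1.90.

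Of the remaining stalk subunits, Atp5e, the epsilon subunit, was at 22.4, 17.6 and 14.98 RPKM in wild type against 13.3, 11.9 and 12.7 RPKM in knockout, all lower (-0.50, SE 0.24, adjusted p = 0.669, limma, and -0.54 without the library labelled knockout replicate 1). Atp5h, subunit d of the peripheral stalk, was at 21.2, 24.1 and 22.5 RPKM against 33.6, 24.2 and 40.7 RPKM, all higher by a narrow margin in replicate 2 (0.50, SE 0.24, adjusted p = 0.667, limma, and 0.47 without that library). It has 4 near-identical copies. Atp5o, which joins the head to that stalk, ranged from 3.96 to 11.0 RPKM and from 6.59 to 15.2 RPKM (0.54, SE 0.47).

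In the membrane part, Atp5l, subunit g, was at 1.51, 0.850 and 0.926 RPKM in wild type against 4.05, 3.58 and 10.3 RPKM in knockout. No library overlapped, and the log2 fold change was 1.90 (SE 0.56, adjusted p = 0.524, limma) and 2.08 without the library labelled knockout replicate 1. Only 1 wild-type library reached 1 RPKM, so Atp5l entered the test through its knockout values. It has 9 near-identical copies, the most of any member, and its level is uncertain. Atp5j2, subunit f, whose start-codon window is shown above, was at 7.05, 9.35 and 8.31 RPKM against 3.09, 6.15 and 5.48 RPKM, all lower (-0.73, SE 0.37, adjusted p = 0.692, limma), and -0.46 without the library labelled knockout replicate 1. Atp5sl, a factor with the same motif at its start codon and chosen here after its values were seen, was at 10.01, 8.07 and 8.12 RPKM against 6.82, 6.21 and 3.79 RPKM (-0.63, SE 0.34, adjusted p = 0.720, limma, and -0.78 without that library).

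The proton-carrying c ring comes from 3 genes whose mature proteins are identical. Atp5g3 led in every library, at 24.3, 31.3 and 5.27 RPKM in wild type against 30.9, 19.0 and 16.5 RPKM in knockout, with its lowest value in wild-type replicate 3. Atp5g2 ranged from 2.30 to 6.82 RPKM and from 4.40 to 7.14 RPKM, and Atp5g1 from 1.95 to 4.47 RPKM and from 2.55 to 4.55 RPKM. Their log2 fold changes were 0.40, 0.50 and 0.29 with SEs of 0.62, 0.49 and 0.50, and 0.14, 0.30 and 0.45 without the library labelled knockout replicate 1. Atp5g1 gave 13.3% ± 8.09 of the summed RPKM of the 3 in wild type and 11.9% ± 5.79 in knockout (SD, n = 3). This share depends on the exonic lengths used, 4912 bases for Atp5g1, 1675 for Atp5g2 and 2181 for Atp5g3. In reads not scaled by length, Atp5g3 still led in every library. Atp5g1 was then above Atp5g2 in every library except wild-type replicate 2 (154 against 184 reads). The means of the share lay closer together than the SD of either genotype, and with 3 against 3 libraries an exact permutation test cannot go below p = 0.1 (two-sided).

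The members differed widely in how steady they were between libraries of a genotype. Their median SD within genotypes was 0.49 on the log2 scale, the same as over all tested genes, but the 4276 tested genes at a level within the members' middle range had a median of 0.35. Those 4276 genes were longer, with a median of 4112.5 exonic bases against 1737 for members. Tested genes under 1200 bases had a median SD of 0.99 and longer ones 0.45, and the part of length was not tested. The 46 members with a mean of at least 20 RPKM had a median SD of 0.42 and the 32 below it 0.64. Highest and lowest wild-type libraries were at least 5-fold apart for 9 members (Ndufa3, Ndufa11, Ndufb6, Ndufc1, Ndufc2, Ndufs5, Ndufs7, Cox5b and Atp5g3), 7 of them in complex I, and knockout libraries for 1 (Uqcr11). Over all tested genes 20.9% were this far apart in wild type and 13.7% in knockout. Members outside the naming rule are named here after their values were seen.

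The wide members were not low in the same library. Wild-type replicate 3 was lowest for Ndufa3, Ndufb6, Ndufc1, Ndufc2 and Atp5g3, and wild-type replicate 1 for Ndufs5 and Ndufs7. Ndufa3, an accessory subunit, was at 1.80, 23.8 and 0.394 RPKM in wild type against 18.3, 16.4 and 14.4 RPKM in knockout. Ndufc2, of the membrane arm, was at 55.7, 38.9 and 5.65 RPKM against 35.2, 61.4 and 65.6 RPKM. Ndufs5 was at 0.180 RPKM (2 reads) in wild-type replicate 1, at 15.6 and 20.1 RPKM in replicates 2 and 3, and at 3.94, 8.24 and 7.56 RPKM in knockout.

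**Figure D4:**
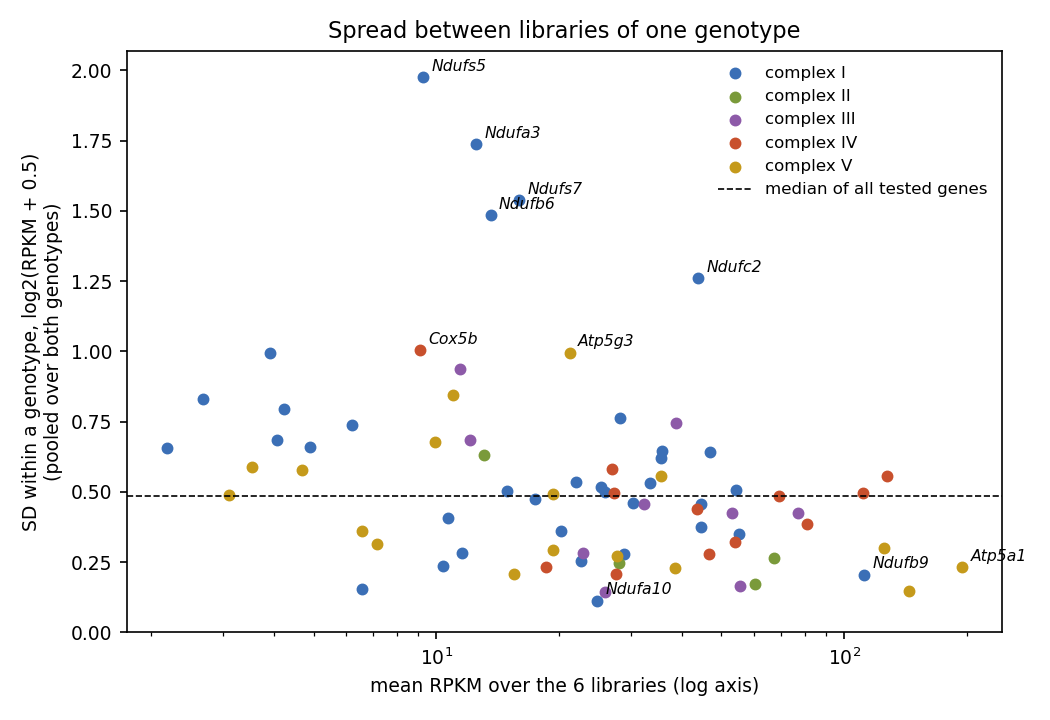
SD of log2(RPKM + 0.5) within a genotype, pooled over wild type and knockout (y axis), against the mean RPKM of the 6 libraries on a log axis (x axis), 1 point per member coloured by complex. The dashed line is the median of all tested genes (0.49). Ndufs5, Ndufa3, Ndufs7 and Ndufb6 stand highest, and abundant members such as Atp5a1 lie well below the line.

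Features of the genes beyond their names were also set beside the values. Near-identical copies, mostly pseudogenes, were found for 19 members, whose median log2 fold change was 0.19 (11 above 0), against 0.12 for the 59 without a copy (36 above 0). Exons of 27 members overlapped another gene, for 24 of them on the opposite strand, and their median was 0.12, against 0.16 for the 51 others. The 23 members shorter than 1200 exonic bases had a median of 0.22 and the 55 longer ones 0.10. Over all tested genes the medians went the same way, 0.09 for the shorter and 0.02 for the longer.

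Subunits encoded by mitochondrial DNA lay on the other side of 0. The fold change was below 0 for all 13, with a median of -0.24, none was called, and 2 (15.4%) had an unadjusted p under 0.05, both lower, against 3.06% of all tested genes in that direction. Over all tested genes 48.1% were below 0. mt-Co2, a catalytic-core subunit of complex IV, was at 195, 127 and 106 RPKM in wild type against 81.2, 76.4 and 77.5 RPKM in knockout, all lower (-0.81, SE 0.24, adjusted p = 0.521, limma). mt-Co3, of the same core, was at 45.7, 36.8 and 30.6 RPKM against 24.6, 17.3 and 19.1 RPKM (-0.87, SE 0.23, adjusted p = 0.456, limma). Over the 13 genes the mean level of the wild-type libraries was 0.43, 0.06 and -0.49 and that of the knockout libraries -0.56, -0.28 and -0.30, so wild-type replicate 3 lay among the knockout libraries. The median was -0.43 without that library and -0.04 after quantile normalization. Whether nuclear and mitochondrial subunits differed in their response was not tested.

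A further list held electron carriers, subunits that the symbol rule does not reach and a few other proteins of the inner membrane. Of its 12 genes 11 were listed and tested, 10 were above 0 (90.9%, against 51.9% of all tested genes), the median was 0.65, and 2 (18.2%) had an unadjusted p under 0.05, both higher, against 4.73% in that direction. The list was not compared with the members by a test. Minos1, a part of the cristae-organising complex and not of the chain itself, was at 13.3, 13.9 and 8.02 RPKM in wild type against 22.7, 22.6 and 31.2 RPKM in knockout (1.11, SE 0.29, adjusted p = 0.436, limma). Gpd2, the glycerol-3-phosphate dehydrogenase that feeds electrons to ubiquinone, was at 15.1, 18.4 and 10.9 RPKM against 26.8, 21.6 and 28.8 RPKM (0.80, SE 0.26, adjusted p = 0.560, limma). Cycs, cytochrome c, was at 3.14, 8.59 and 7.35 RPKM against 15.9, 9.45 and 11.4 RPKM, all higher (0.97, SE 0.42, adjusted p = 0.645, limma). Without the library labelled knockout replicate 1 the median of the list was 0.77. The proliferation markers were also higher in knockout, as given above, and their part in the values of this list was not tested.

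Of 50 assembly factors tested, 26 were above 0, the median was 0.04, none was called, and 3 had an unadjusted p under 0.05, all higher: Cmc2, Ndufaf1 and Atpaf2. These were 6% of the list, near the 4.73% of all tested genes that were higher at this p. Cmc2, a factor of complex IV assembly, was at 0.303, 2.16 and 0.0662 RPKM in wild type against 5.79, 7.498 and 13.1 RPKM in knockout (3.05, SE 0.69, adjusted p = 0.429, limma). It reached 1 RPKM in 1 wild-type library only, so it entered the test through its knockout values. Ndufaf1, a complex I assembly factor, was at 9.90, 6.45 and 3.11 RPKM against 11.3, 11.0 and 28.3 RPKM (1.30, SE 0.52, adjusted p = 0.622, limma). By complex the medians were -0.02 for complex I (15 genes), -0.07 for complex II (4), 0.12 for complex III (5), -0.02 for complex IV (23) and 0.40 for complex V (3), the last 0.11 without the library labelled knockout replicate 1.

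Among 21 regulators of mitochondrial biogenesis 8 were above 0 and the median was -0.05. Yy1, the deleted gene, was in this list, with a log2 fold change of -0.66. By limma 2 (9.52%) had an unadjusted p under 0.05, both higher, against 4.73% of all tested genes in that direction and 7.79% in all. Limma-voom gave 1 higher and 3 lower (4.40% and 3.43% of all genes it tested). Tfam, which packs and transcribes mitochondrial DNA, was at 24.6, 23.1 and 21.4 RPKM in wild type against 35.3, 26.9 and 38.4 RPKM in knockout (0.52, SE 0.21, adjusted p = 0.626, limma). Tefm, the elongation factor of mitochondrial transcription, was at 2.17, 8.30 and 6.29 RPKM against 14.3, 10.7 and 11.3 RPKM (1.20, SE 0.48, adjusted p = 0.619, limma). Nrf1 and Gabpa, whose motifs were counted above, had log2 fold changes of 0.61 (SE 0.47) and 0.21 (SE 0.22), and Esrra -0.82 (SE 0.57), none of them called.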

How the data were processed

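RNA-seq of 3 wild-type and 3 Yy1 knockout libraries was analysed from 1 deposited table, with groups taken from the labels. The 6 library columns hold RPKM values of the authors. The unit is not in the header and was read from the values: times the exonic length of GENCODE M21, 71.8% of 15465 genes gave whole reads in all 6 libraries (tolerance 0.02 reads), 50 members among them. The submitters' processing notes name mm10, Subread, featureCounts, edgeR and limma for the authors' steps, and settings are not given in the sources used here. Per the file headers the authors also deposited a fold change, taken here as log2 from its size, with raw and adjusted p-values per gene.

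The comparison used limma 3.58.1 in R 4.3.3 with a variance trend on log2(RPKM + 0.5). Two-sided p-values were adjusted by Benjamini-Hochberg over all tested genes. On 5 simulated data sets of up to 12294 genes the same test called 0.2% of genes changed by 1 and 3.8% of those changed by 2 on the log2 scale, so the design can miss such changes. Near-identical copies were found with BLAST 2.17.0 (identity at least 95% over at least 80% of the shorter transcript and 150 bases). The kit amplifies RNA, so reads are not independent molecules. Named genes were fixed landmark subunits, the highest and lowest fold change of each complex, and members at an unadjusted p under 0.05 or without overlap (up to 10), plus listed companions. Members and lists were chosen with earlier results of these data known. Values of 1 member are not reported here.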

Additional observations from a re-analysis of the deposited data

How the results depend on the processing

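Medians, counts and fold changes were recomputed with pseudocounts of 0.1 and 1, no filter, a filter at 5 RPKM, quantile normalization, no variance trend, the replicate block, limma-voom, complexes by current assignment, members of at least 20 RPKM and each library left out. Apart from the latter, 141 of 146 summary values and 394 of 397 values of single genes or counts were labelled unchanged. That label is lenient and does not mean that a value kept its size or side. The median of complex II assembly, -0.071 in the main fit, was labelled unchanged at -0.31 with the pseudocount of 0.1. It was also labelled unchanged at 0.27 with the filter at 5 RPKM (n = 2 genes). The mitochondrial median under quantile normalization, given above, was not labelled as changed either. No member was called under any of these settings. With the filter at 5 RPKM, the median of complex V was -0.035, that of complex IV assembly 0.055 and that of regulators 0.091. Limma-voom called 8 genes and gave -0.52 for complex II assembly. Quantile normalization put Atp5b at 0.023. The cause was not tested.

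Leaving out each library in turn gave 0 to 1 called genes, and medians of 0.026 to 0.25 for complex I, -0.035 to 0.17 for complex II, -0.18 to 0.14 for complex III, 0.088 to 0.33 for complex IV and 0.059 to 0.33 for complex V. Complex I had its lowest median, 0.026, without wild-type replicate 1. Complex V had 0.068 without wild-type replicate 3, and 0.059, 0.33 and 0.083 without the libraries labelled knockout replicates 1, 2 and 3. Complex II had 0.17 without wild-type replicate 3. Complex IV had 0.088 without wild-type replicate 1 and, leaving out knockout replicate 3, 0.18. Assembly medians ran from -0.33 to 0.080 (complex I), -0.58 to -0.00033 (II), -0.15 to 0.21 (III) and -0.091 to 0.12 (IV).

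Among the named members, these changed sign in some of these fits: Atp5a1 (-0.22 to 0.068), Atp5b (-0.12 to 0.055), Atp5c1 (-0.18 to 0.17), Atp5g3 (-0.36 to 0.87), Cox5b (-1.22 to 0.10), Cox6b1 (-0.23 to 0.45), Cox7a2l (-0.44 to 0.17), Cox7c (-0.016 to 0.47), Cox8a (-0.042 to 0.34), Cyc1 (-0.10 to 0.29), Ndufa9 (-0.057 to 0.50), Ndufb10 (-0.0010 to 0.64), Ndufs7 (-0.035 to 1.88), Ndufv2 (-0.27 to 0.42), Sdha (-0.10 to 0.093), Sdhb (-0.19 to 0.15), Sdhc (-0.61 to 0.25), Uqcrc2 (-0.079 to 0.44), Uqcrfs1 (-0.080 to 0.43) and Uqcrq (-0.025 to 0.74).

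With the replicate number as a block, 0 genes were called and 6 members were higher and 2 lower at an unadjusted p under 0.05. The share of all tested genes at this p was not taken in that fit, so this count cannot be set against a background. Deviations of libraries with the same number correlated at 0.0152, 0.0593 and 0.0467, and those with different numbers at -0.0758 to 0.0353. The last was for wild-type replicate 1 and knockout replicate 2, its best match. Whether libraries of the same number were handled together was not tested. Counts by overlap and at an unadjusted p were added after the data were seen.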
